A study of Mus musculus with 96 samples.

Results

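The 9 genes H2-K1, H2-D1, Tap1, Tapbp, Irf1, Irf7, Isg15, Ifit1 and Bst2 belong to the interferon response and to antigen presentation by the major histocompatibility complex (MHC) class I. They were taken by name from the 40202 genes of the deposited count files. All 9 were listed there, and 8 of the 9 could be measured. The gene span of Ifit1 lies wholly (100%) inside that of Ifit1bl1, and reads that overlap more than 1 gene were not counted, so its count of 0 in every cell carries no information.

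The libraries are single cells of C10, a mouse cell line (labelled as type II epithelium of the alveolus), sorted one by one into nanowells and sequenced after SMART-Seq V4 amplification. In each of 2 groups 48 cells were sequenced: a control with no treatment, for which no vehicle is named, and cells given RO-3306 for 36 h at 10 nM, as the labels write the dose. RO-3306 inhibits CDK1, the kinase that drives entry into mitosis. Cells with at least 50000 counts and 1000 detected genes were kept, 29 of the control group and 37 of the RO-3306 group, with 59979 to 6457215 and 295005 to 5321880 counts per cell. The labels name no separate cultures, so each treatment is 1 sample and no test was possible. Every interval below is at the 95% level and covers no spread between cultures. Those of counts are exact Poisson and cover counting error only. Those of shares of cells are Clopper-Pearson and cover only the drawing of cells, each taken as an independent draw. Amplified reads without molecular identifiers are not independent molecules, so the intervals of counts are narrow. The sample titles carry the letters A to D, whose meaning the labels do not give; these 4 lettered sets are used below as subdivisions of the cells, not as replicates.

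Of the 8 markers of alveolar type II cells, 5 (Sftpa1, Sftpc, Sftpd, Slc34a2 and Napsa) had no count in any kept cell. The 6 mesenchymal markers summed to 5579 CPM in control, where CPM is counts per 1000000 counts, and to 2523 in RO-3306. Of the other alveolar type II markers, Sftpb had counts in 1 cell, Lamp3 in 15 cells and Abca3, a lipid transporter, in 19 (9.38 and 5.21 CPM). The surfactant protein genes that define the labelled cell type were thus at or near 0. More genes were detected per RO-3306 cell: after every cell had been thinned at random to 639000 reads, which 25 control and 34 RO-3306 cells could supply, the median was 4576 genes in control (middle 50% of cells 3717 to 5462) and 5958 in RO-3306 (5408 to 6586). Shares of cells have to be read beside that difference.

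MHC class I molecules carry peptides from inside the cell to its surface, where T cells read them. Peptides enter the endoplasmic reticulum through a transporter of which Tap1 is one chain, tapasin (Tapbp) holds the empty class I molecule next to it, and the heavy chains H2-K1 and H2-D1 take up the peptide together with the light chain B2m. Interferons, released by infected or stressed cells, act through JAK kinases and STAT factors to raise these genes and a large set of antiviral genes, through DNA elements called the interferon-stimulated response element and the gamma-activated site.

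The promoters of the members were searched for both elements, to show which members carry their letters close to the gene start. Promoters were the RefSeq sequences of build GRCm38.p6 from 250 bases before to 50 bases after the gene start, 11 of them for the 9 members, and both strands were read. The response element was searched as GAAANNGAAA, which stands in 1131 of 32851 promoters (3.44%). An exact match was found in 3 of the 9 members, Isg15, Ifit1 and Bst2, all of them antiviral effectors. Sequences that differ from these letters were not searched, so members without a match, the heavy chains included, may hold a variant of the element. Capitals mark every base covered by a match. In Isg15 3 overlapping matches began 78, 72 and 66 bases before the gene start (minus strand, chr4:156200855-156200916), in Bst2 2 overlapping matches began 130 and 124 bases before it (minus strand, chr8:71537567-71537622), and in Ifit1 2 matches on the opposite strand began 104 and 85 bases before it (plus strand, chr19:34640765-34640833).
Isg15: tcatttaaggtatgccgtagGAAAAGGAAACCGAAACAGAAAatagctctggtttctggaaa
Bst2: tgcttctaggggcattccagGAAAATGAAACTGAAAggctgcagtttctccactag
Ifit1: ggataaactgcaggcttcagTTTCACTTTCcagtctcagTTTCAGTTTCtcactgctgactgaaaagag
The gamma-activated site was searched as TTCNNNGAA, found in 2726 promoters (8.30%). It stood in Irf1, 90 bases before the gene start (plus strand, chr11:53769904-53769952, capitals mark the site), and in Bst2, where it shared 3 bases with the response element.
Irf1: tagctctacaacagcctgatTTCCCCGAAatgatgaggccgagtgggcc
The promoters of the heavy chain genes are shown for their likeness to each other. Their longest identical run, in capitals, was 47 bases, beginning 141 bases before the start of H2-K1 (minus strand, chr17:34000422-34000508) and 201 bases before the start of H2-D1 (plus strand, chr17:35262873-35262959).
H2-K1: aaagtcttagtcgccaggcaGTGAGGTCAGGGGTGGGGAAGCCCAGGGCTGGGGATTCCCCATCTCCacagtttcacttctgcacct
H2-D1: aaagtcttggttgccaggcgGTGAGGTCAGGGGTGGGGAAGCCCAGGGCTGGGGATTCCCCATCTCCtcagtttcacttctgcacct
A match of letters describes the sequence only; no binding was measured in these cells.

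RO-3306 against untreated control is the comparison of the study. Both heavy chain genes, both peptide loading genes and the effectors Isg15 and Bst2 had more CPM in RO-3306 cells, 6 of the 8 measured members, while the transcription factors Irf1 and Irf7 had fewer. Over all 9374 genes of at least 5 CPM, 41.0% were higher in RO-3306. The differences were between 1.21-fold (Tapbp) and 2.40-fold (H2-D1) among those higher, and they came with a larger number of positive cells. At equal depth all 7 members of at least 5 CPM had a read in a larger share of RO-3306 cells, as had 72.0% of the 9374 genes. Over these 7 members the median log2 ratio was 0.70, against -0.22 over all genes of that level, where the log2 ratio is that of RO-3306 CPM + 1 over control CPM + 1 in counts summed over kept cells. A gene was called when its ratio was at least 2-fold either way and had the same sign in all 4 lettered sets. Bst2 alone of the 7 was called, higher in RO-3306, where 7.23% of all genes tested were called higher, and none of the 7 was called lower, where 6.43% of all genes were. A count of 1 in 7 is near that background and is no result about the members.

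**Figure D1:**
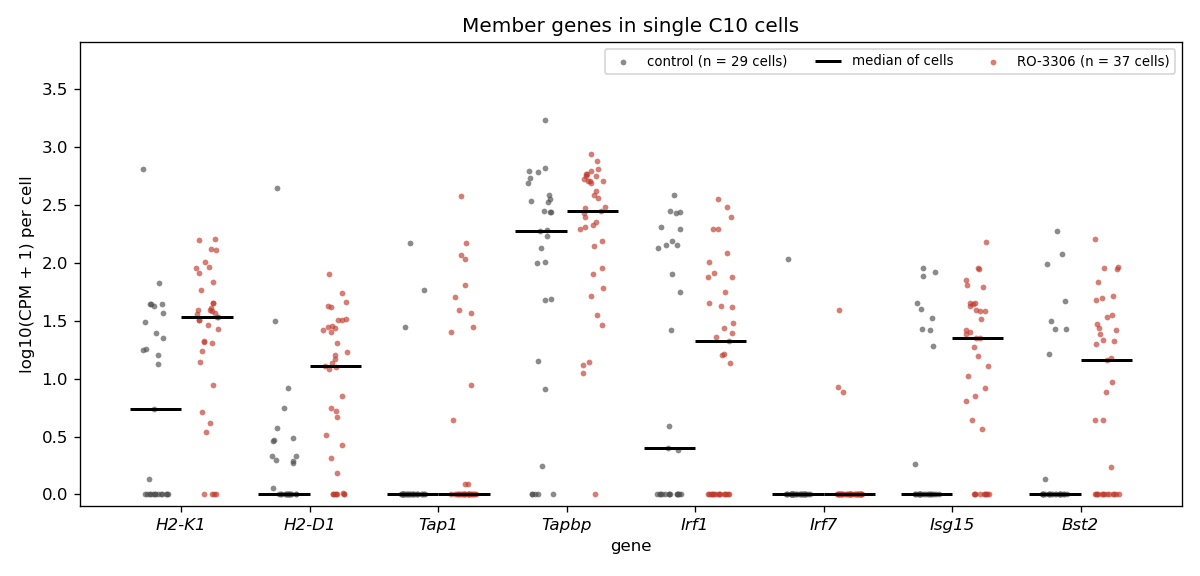
CPM of each measured member in single cells, on an axis of log10(CPM + 1), with 29 control cells in grey and 37 RO-3306 cells in red. Black bars are medians over cells; points at 0 are cells without a count. The control medians of H2-D1, Tap1, Irf7, Isg15 and Bst2 are 0, while in RO-3306 only those of Tap1 and Irf7 are.

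H2-K1, a class I heavy chain that presents peptides to T cells (chromosome 17, 34214986 to 34219321, minus strand, GRCm39), ranged over control cells from 0 through a median of 4.5 to 646 CPM, and over RO-3306 cells from 0 through a median of 33.3 to 159 CPM. The groups overlapped, with 16 of 29 control and 33 of 37 RO-3306 cells holding a count, and the cell with the highest level of all was a control cell. Summed over cells, control had 23.4 CPM of H2-K1 (interval 22.2 to 24.6) against 45.0 CPM under RO-3306 (43.6 to 46.3), a ratio of 1.92 (1.81 to 2.04) and a log2 ratio of 0.92. By lettered set the control and RO-3306 levels were 18.2 and 45.4 CPM in A, 21.5 and 52.4 in B, 58.1 and 31.1 in C, and 9.57 and 56.2 in D. Set C went the other way, and there a single control cell, C3, held 391 of the 466 control counts.

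H2-D1, the other classical heavy chain measured (chromosome 17, 35482070 to 35486473, plus strand), was scarcer. Control cells ranged from 0 through a median of 0 to 437 CPM and RO-3306 cells from 0 through a median of 11.9 to 78.1 CPM, and 14 of 29 against 30 of 37 cells were positive. Among the cells with a count the median was 1.92 CPM for control and 15.5 CPM for RO-3306, so RO-3306 cells held both more positive cells and more reads per positive cell. The sums were 6.51 CPM (5.91 to 7.16) and 15.6 CPM (14.8 to 16.4), a ratio of 2.40 (2.15 to 2.67) and a log2 ratio of 1.14. Control cell C3 held 61.5% of the control counts of H2-D1. This cell had 604699 counts over only 2109 genes. Without it H2-D1 stood at 2.53 CPM in control, with a log2 ratio of 2.23, and H2-K1 at 17.6 CPM, with a log2 ratio of 1.30; the log2 ratio of set C then turned positive, at 3.27 for H2-D1 and 1.53 for H2-K1, and both met the rule of a call. C3 was left out only after its values had been seen. With every cell weighted equally (the mean of per-cell CPM) and C3 kept, H2-D1 stood at 17.0 and 16.7 CPM, a log2 ratio of -0.02, and H2-K1 had a log2 ratio of 0.29. Without set B the log2 ratio of H2-D1 was 0.36.

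H2-K1 and H2-D1 went together in single cells. At equal depth 25 of 34 RO-3306 cells had reads of both, 5 of H2-K1 only and none of H2-D1 only; in control 7 of 25 cells had both, 5 H2-K1 only, 1 H2-D1 only, and 12 neither. Over the 25 control cells Spearman's rho between them reached 0.56, and over the 34 RO-3306 cells 0.69, the largest of the 21 member pairs in either group. These genes share sequence, which sets a limit here: reads with several alignments were divided between places, and 25 of the 49 cells with H2-K1 and 32 of the 44 with H2-D1 carried a count that was not whole. In the reference transcripts 8.79% of the 50-base windows of H2-K1 mRNA and 14.3% of those of H2-D1 mRNA recur in another gene, with other H2 genes first, but at the read length of 150 bases this was 0% and 1.79%. The strain of C10 is not named in the labels, and class I genes differ between mouse strains, so reads of these genes may be misplaced; how far was not tested. Summed, H2-K1 and H2-D1 gave 29.9 CPM in the control group against 60.6 CPM, a log2 ratio of 0.99, and 18 of 29 against 35 of 37 cells held either. Over all 13 counted H2 class I heavy chain genes the sums were 145 and 191 CPM, a log2 ratio of 0.39, and the lettered sets were 1.56, 0.50, -1.32 and 0.50; it was -0.21 with the mean of per-cell CPM and -0.01 without set A.

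Tap1, one chain of the peptide transporter (chromosome 17, 34406530 to 34416199, plus strand), was found in few cells: 3 of 29 control cells, with 27.0, 57.1 and 146 CPM, and 14 of 37 RO-3306 cells, with a median of 37.0 and a maximum of 376 CPM. The cells that had it thus overlapped in level, and the median over all cells was 0 in both groups. The sums were 11.3 CPM (10.5 to 12.1) and 19.0 CPM (18.1 to 19.9), a ratio of 1.68 (1.54 to 1.84) and a log2 ratio of 0.70. Each of the 4 lettered sets was higher in RO-3306, narrowly so in B (18.0 and 19.9 CPM), and sets C and D had no control count at all. Without its top cell in each group (B4 in control, D7 in RO-3306) Tap1 stood at 6.34 and 14.6 CPM, a log2 ratio of 1.09, and met the rule of a call.

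Tapbp, tapasin, which bridges the transporter and the empty class I molecule (chromosome 17, 34138452 to 34148264, plus strand), was the most abundant member. Control cells ranged from 0 through a median of 185 to 1710 CPM, and RO-3306 cells from 0 through a median of 279 to 872 CPM; 24 of 29 and 36 of 37 cells had a count. The sums were 300.1 CPM (296 to 304) and 364 CPM (360 to 368), a ratio of 1.21 (1.19 to 1.24) and a log2 ratio of 0.28, the smallest of the members that were higher. Summed over the cells of each lettered set, RO-3306 stood at 345 to 378 CPM in every set. The control sets spread from 11.5 CPM in C, through 280 in B and 325 in A, to 599 in D. The sets of the control thus differed more from each other than the groups did.

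Irf1, a transcription factor induced by interferon gamma that binds class I and other promoters (chromosome 11, 53660841 to 53669200, plus strand), was about level between the groups in sum. Control cells ranged from 0 through a median of 1.5 to 385 CPM and RO-3306 cells from 0 through a median of 20.2 to 351 CPM, with 16 of 29 and 22 of 37 cells positive. The median of the positive cells was 141 CPM for control and 49.7 CPM for RO-3306. The sums were 79.1 CPM (77.0 to 81.3) and 68.0 CPM (66.3 to 69.7), a ratio of 0.86 (0.828 to 0.892) and a log2 ratio of -0.22, close to the median of all genes tested, and it turned to 0.02 with DESeq2 size factors. Sets B, C and D were lower in RO-3306 and set A was higher.

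Irf7, the factor that amplifies the type I interferon response (chromosome 7, 140843096 to 140846412, minus strand), was nearly absent. A single control cell, B6, held all 444 control counts at 106 CPM, and 3 RO-3306 cells held 87, 11 and 9 counts. The sums, 6.72 and 1.15 CPM, therefore compare 1 cell with 3, and their mean fell under the 5 CPM asked of a gene to be tested; without the top cell of each group Irf7 was at 0 in control and 0.221 CPM in RO-3306.

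Isg15, a ubiquitin-like protein that is attached to other proteins after interferon (chromosome 4, 156283881 to 156285275, minus strand), ranged over control cells from 0 through a median of 0 to 89.1 CPM and over RO-3306 cells from 0 through a median of 21.3 to 149 CPM. It had a count in 10 of 29 control and 28 of 37 RO-3306 cells, yet the median of those cells was 35.5 CPM for control and 28.4 CPM for RO-3306: more cells had it, at no higher median level. The sums were 17.0 CPM (16.0 to 18.0) and 28.0 CPM (26.9 to 29.1), a ratio of 1.65 (1.53 to 1.77) and a log2 ratio of 0.69. The direction was opposite in set A, with 38.2 CPM in control and 15.4 in RO-3306, and it held 7 of the 10 positive control cells. In the remaining sets control and RO-3306 stood at 6.70 and 27.2 CPM (B), 0 and 32.9 CPM (C) and 0.269 and 31.8 CPM (D).

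Bst2, tetherin, a membrane protein that holds budding enveloped viruses at the cell surface (chromosome 8, 71986899 to 71990116, minus strand), ranged over control cells from 0 through a median of 0 to 186 CPM and over RO-3306 cells from 0 through a median of 13.6 to 160 CPM. It had a count in 9 of 29 control and 24 of 37 RO-3306 cells, with medians of 30.6 and 25.8 CPM among these, so here too RO-3306 had more positive cells, at no higher median level. The sums were 13.0 CPM (12.1 to 13.8) and 27.4 CPM (26.4 to 28.5), a ratio of 2.12 (1.96 to 2.29) and a log2 ratio of 1.03, just past the 2-fold of a call. All sets were higher in RO-3306: 21.7 and 27.0 CPM in A, 11.2 and 37.3 in B, 0 and 16.7 in C, 4.04 and 32.5 in D. H2-K1 at 0.92 and H2-D1 at 1.14 were not called, and set C was negative for each of them. The call was lost when cells were weighted equally (mean of per-cell CPM), at equal depth, without set B or without set D. It was kept without the top cell of Bst2 in each group (log2 1.45).

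**Figure D2:**
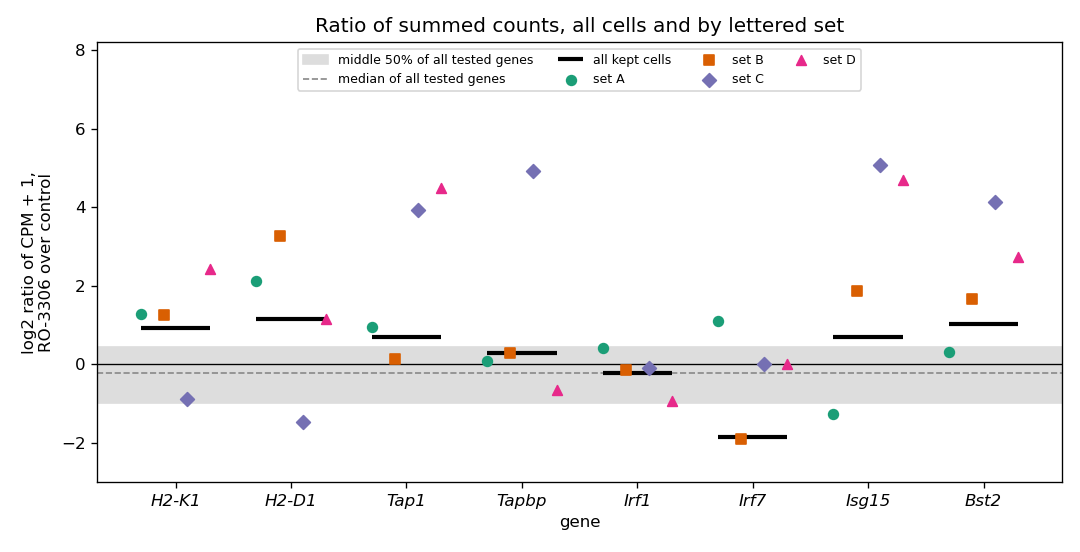
Log2 ratio of CPM + 1, RO-3306 over control, for each measured member in all kept cells (black bars) and in each of the 4 lettered sets (symbols). The grey band holds the middle 50% of the 9374 tested genes (-0.98 to 0.43) and the dashed line is their median (-0.22); all 4 symbols lie above 0 for Tap1 and Bst2, 2 of the 7 tested members, as for 13.1% of all tested genes.

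Per kilobase of mRNA, which allows levels of different genes to be set side by side, Tapbp led in both groups, at 104 CPM per kb in control and 126 in RO-3306. In control Irf1 (37.0), Isg15 (22.5), Bst2 (16.3) and H2-K1 (14.4) followed, and Tap1 (3.83), H2-D1 (3.10) and Irf7 (3.01) closed the order. In RO-3306 Isg15 (37.0) and Bst2 (34.6) stood before Irf1 (31.8) and H2-K1 (27.8), with H2-D1 (7.42), Tap1 (6.44) and Irf7 (0.515) last. In control the lettered sets of each gene overlapped those of its neighbours in this order, with Tapbp alone spread from 3.97 to 207 CPM per kb. In RO-3306 the sets of Tapbp (119 to 131) stood above all others, those of Isg15, Bst2, Irf1 and H2-K1 overlapped between 19.2 and 47.0, those of H2-D1 and Tap1 overlapped between 4.0 and 11.8, and those of Irf7 reached 1.72 at most.

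At equal depth the members were also compared by the share of cells that had them. H2-K1 had a read in 12 of 25 control cells (48%, interval 27.8 to 68.7%) and 30 of 34 RO-3306 cells (88.2%, 72.5 to 96.7%), and H2-D1 in 8 of 25 (32%, 14.9 to 53.5%) and 25 of 34 (73.5%, 55.6 to 87.1%). For both heavy chains the intervals did not overlap, 2 of 7 tested members, where 7.76% of all tested genes had a share in RO-3306 whose interval lay above that of control. Isg15 had a read in 10 of 25 control cells (40%, 21.1 to 61.3%) and 26 of 34 RO-3306 cells (76.5%, 58.8 to 89.3%), and Bst2 in 7 of 25 (28%, 12.1 to 49.4%) and 21 of 34 (61.8%, 43.6 to 77.8%). These intervals overlapped at their ends. Tapbp went from 84% (63.9 to 95.5%) to 100% (89.7 to 100%), with intervals that also overlapped at their ends. Tap1 went from 12% to 32.4%, Irf1 from 52% to 64.7% and Irf7 from 4% to 8.82%, all with broadly overlapping intervals. Thinning left out 4 control cells, C3 among them, and 3 RO-3306 cells. Over all kept cells, unthinned, the intervals of H2-D1 did overlap (29.4 to 67.5% and 64.8 to 92.0%). Those of H2-K1 (35.7 to 73.6% and 74.6 to 97.0%) and Isg15 (17.9 to 54.3% and 58.8 to 88.2%) did not. How many of all genes do so unthinned was not counted. At equal depth a median RO-3306 cell held reads of 5 of the 9 members and a median control cell of 3. There 25 of 34 RO-3306 cells and 7 of 25 control cells held 5 or more. The libraries left out for low counts had a count of H2-K1 in 1 of 19 control and 0 of 11 RO-3306 libraries, of Tapbp in 3 and 3, of Irf1 in 2 and 0, of Tap1 in 0 and 2, of Irf7, Isg15 and Bst2 in 0 and 1 each, and of H2-D1 and Ifit1 in none. They hold 341166 and 1162603 counts in all, too few to set a rate of stray reads for the kept cells.

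**Figure D3:**
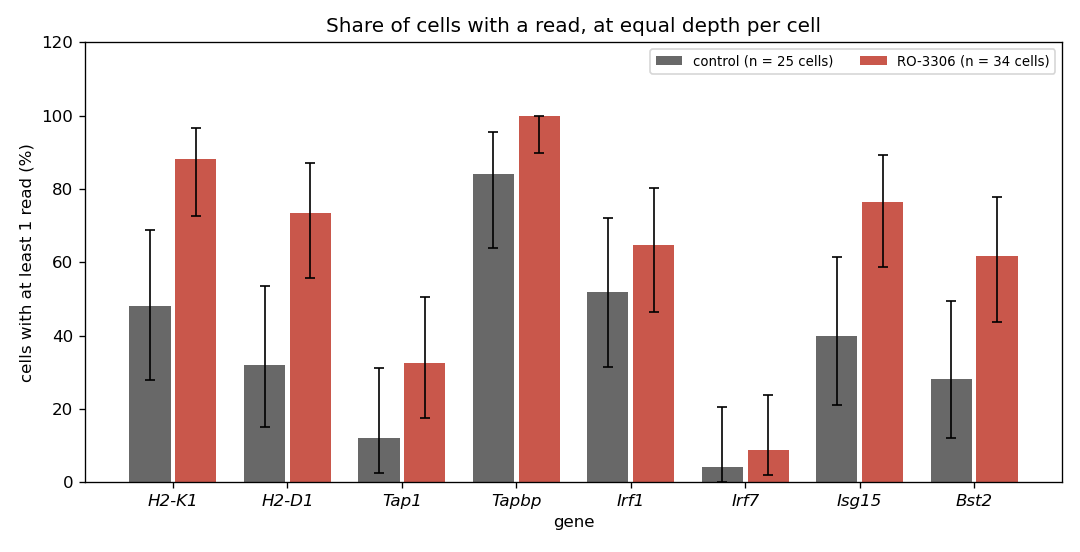
Percent of cells with at least 1 read of each measured member after thinning to 639000 reads per cell, for 25 control and 34 RO-3306 cells. Error bars are 95% Clopper-Pearson intervals, which cover only the drawing of cells within 1 sample per group. They do not overlap between the groups for H2-K1 and H2-D1.

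Higher shares in RO-3306 were common among all genes. Over all 9374 tested genes the share of cells with a read was higher in RO-3306 by a median of 8.94 percentage points (middle 50% from 0 to 21.2), and 72.0% of genes had a higher share there. Against this, H2-D1 was 41.5 points higher, a difference that 4.15% of tested genes reached, H2-K1 40.2 points (4.88%), Isg15 36.5 points (7.29%) and Bst2 33.8 points (9.34%). Tap1 (20.4 points, 26.4% of genes), Tapbp (16 points, 35.0%) and Irf1 (12.7 points, 41.5%) lay within the middle bulk. Within each group, cells with more detected genes also had more of the members (Spearman's rho at equal depth 0.65 over 25 control cells and 0.71 over 34 RO-3306 cells).

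**Figure D4:**
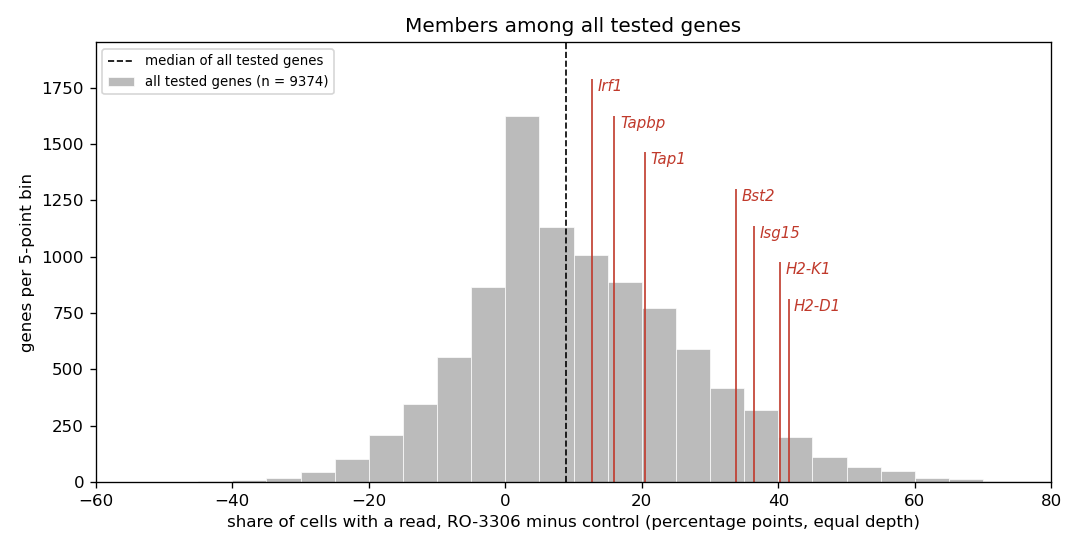
Difference in the share of cells with a read at equal depth, RO-3306 minus control, for all 9374 tested genes (grey bars, genes per 5-point bin) and for the 7 tested members (red lines). The dashed line is the median of all genes, 8.94 points; Irf1 lies nearest to it and H2-D1 farthest, at 41.5 points.

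Among cells with 4500 to 6500 genes at equal depth, 10 control cells (median 5124 genes) and 21 RO-3306 cells (median 5553), a window set after the data had been seen, shares of cells were compared again. H2-K1 had a read in 5 of 10 and 18 of 21 cells, H2-D1 in 4 of 10 (40%) and 14 of 21 (66.7%), a smaller gap than over all thinned cells, Tap1 in 0 of 10 and 5 of 21, and Bst2 in 1 of 10 (10%, 0.253 to 44.5%) and 13 of 21 (61.9%, 38.4 to 81.9%). Isg15, at 6 of 10 and 16 of 21, and Tapbp, at 9 of 10 and 21 of 21, also came closer together, and Irf1 was found less often in RO-3306, in 10 of 21 against 6 of 10 cells. Irf7 had a read in 1 of 10 and 2 of 21. With so few control cells all of these intervals overlapped.

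The rest of the pathway was read from lists of 133 other genes, of which 60 reached 5 CPM and could be measured free of another gene's span. Of these 60, 26 were higher and 34 lower in RO-3306, with a median log2 ratio of -0.15, near that of all genes; 5 were called higher and 1 lower, set beside the 7.23% and 6.43% of all genes. The members' partners were mixed in direction, as the plot of the lists shows. The lists were drawn up with earlier results of these data known.

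Of the class I light chain and the other heavy chains, 3 of 17 genes were tested: Mr1, which presents small metabolites to a class of T cells, was called higher (6.82 and 25.9 CPM, log2 1.78, a read in 8% and 44.1% of cells at equal depth), H2-T22 stood at 28.3 and 55.2 CPM (log2 0.94, positive in every set) and H2-M3 at 78.2 and 59.7 CPM. Of the 51 cells with H2-T22, 38 carried a count that was not whole. The light chain B2m had no count because its span lies within Patl2, so the chain that all class I molecules need could not be followed. For peptide supply and loading 10 of 12 were tested, 4 higher and 6 lower with none called (median -0.28). The class I transactivator Nlrc5 was near 0 (0.0303 and 0.646 CPM).

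Interferon genes themselves were at or near 0. Of 18 ligand genes Ifnk lies inside another span, 16 of the other 17 had no count, Ifnb1 and Ifng among them, and the remaining gene, Ifnz, stood at 0.00167 and 0.0385 CPM; taking 3 counts as the most that a count of 0 allows, the limit is 0.0454 CPM for control and 0.0323 CPM for RO-3306. Of the receptors and signal transducers 10 of 12 were tested, 6 higher and 4 lower (median 0.19), and the receptor-bound kinase Jak1 was called lower, at 112 and 43.2 CPM (log2 -1.36). Irf9, a DNA-binding factor of the type I response, was near 0 (0.182 and 0.83 CPM, 1 cell in each group). Of the other interferon regulatory factors 1 of 4 tested was higher (median -0.50), of the nucleic acid sensors 2 of 5 (median near 0), and of the negative regulators 0 of 5 (median -1.37, but 0.03 without set B); none of these was called.

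Among 40 interferon-stimulated effectors 19 were tested, 6 higher and 13 lower (median -0.20), and 3 were called higher. Ifit2, a relative of Ifit1 that restrains translation of viral RNA, stood at 0.939 and 30.5 CPM. It had a read in 8% (0.984 to 26.0%) of control and 29.4% (15.1 to 47.5%) of RO-3306 cells at equal depth, with overlapping intervals. Its RO-3306 level rested on few cells: 12 of 37 had a count, 2 of 10 in set B and 1 of 6 in set D. Ifi35 stood at 22.1 and 84.3 CPM (36% and 79.4% of cells), and Xaf1, a partner of the apoptosis inhibitor XIAP, at 60.9 and 199 CPM (56% and 100% of cells), where the median gene was 8.94 points higher. Of the 51 cells with Xaf1, 46 carried a count that was not whole, against 15 of 43 for Ifi35 and 2 of 14 for Ifit2. Cells with a whole count held 7.31% of the Xaf1 counts, so its level rests mostly on cells with divided reads. The abundant membrane antiviral genes Ifitm3 (966 and 952 CPM) and Ifitm2 (561 and 471 CPM) were near level. The enzymes that conjugate Isg15 were 3 of 3 higher with none called (median 0.28). Of 7 MHC class II genes 2 were tested. Cd74, the invariant chain, was called higher at 283 and 699 CPM (92% and 100% of cells at equal depth), and H2-DMa, which helps load class II, stood at 6.63 and 16.2 CPM with sets A and C lower and was not called. Ciita, H2-Aa and H2-Ab1 had no count, H2-Eb1 had 66 counts in 1 RO-3306 cell, and H2-DMb1 stood at 0.55 and 0.0808 CPM.

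**Figure D5:**
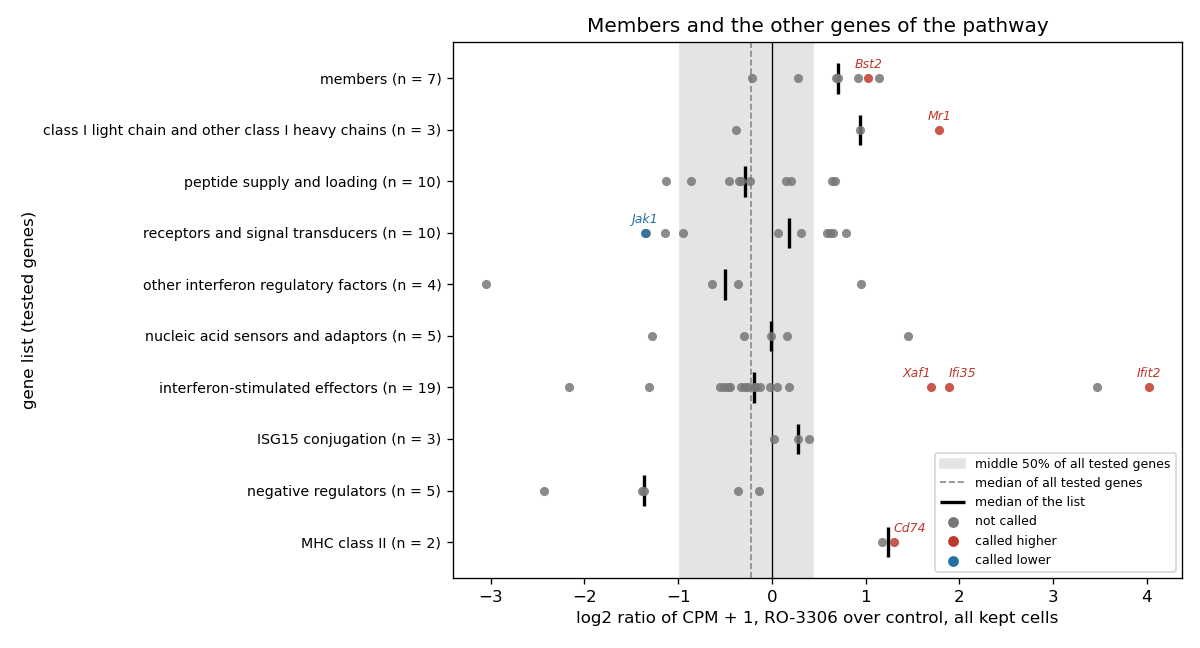
Log2 ratio of CPM + 1, RO-3306 over control, for each tested gene of the members and of 9 lists of pathway genes (points; red called higher, blue called lower), with the median of each list as a black bar. The grey band and dashed line are the middle 50% and the median of the 9374 tested genes; the members' median is 0.70 and the list medians run from -1.37 (negative regulators, 0.03 without set B) to 1.23 (MHC class II, 2 genes).

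Markers of immune cells, which carry much class I and Cd74, were checked in the same cells. Ptprc had no count in control and 0.129 CPM in RO-3306, Tyrobp had none, and the 8 lymphocyte markers summed to 0.00757 and 0.0539 CPM. The summed myeloid markers were 58.6 CPM in control (cells from 0 through 6.13 to 314) and 385 CPM in RO-3306 (0 through 324 to 860), of which Cd68 alone made 0.0757 and 319.8 CPM; 3 of the 11 genes were at 0 in each group. The part of this difference in the values of the members was not tested.

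Genes whose level followed a member from cell to cell were sought for Tapbp and Irf1, which had a read in at least 50% of the thinned cells of each group, among 3701 other genes of at least 50 CPM. For Tapbp the 5 with the highest smaller rho of the 2 groups were Gmps (0.50 in control, 0.52 in RO-3306), Chek2 (0.46, 0.52), Fam50a (0.43, 0.59), Tdp2 (0.43, 0.50) and Gsdme (0.49, 0.42), and for Irf1 Nap1l4 (0.61, 0.41), Arpc5 (0.47, 0.40), Eldr (0.66, 0.39), Oxct1 (0.39, 0.46) and Tmem106c (0.43, 0.38). None of them was a member or a listed pathway gene. These are the highest of many correlations over 25 and 34 cells that share depth and quality. Apart from the heavy chains, no pair of members had a rho of 0.3 or more in both groups.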

How the data were processed

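RNA of single cells was sequenced as single reads of 150 bases, per the labels' protocols. The deposited values are estimated counts per gene, in which the authors divided reads with several alignments (featureCounts 2.0.3 with fractional counting of multi-mapping reads, gene features of the GRCm39 RefSeq annotation and no strand or overlap option, per the file headers); STAR and FastQC are named in the submitters' processing notes. Counts were rounded for intervals, thinning and scaling factors. Counts were summed over kept cells, scaled to 1000000 and compared as the log2 ratio with 1 CPM added. Genes of at least 5 CPM (mean of the groups) were tested against the 2-fold rule. Groups came from the treatment label. The members and gene lists were chosen with earlier results of these data known; named are all members, the 3 highest and lowest called genes of each list, its defining genes (1 is not reported here) and, after their values were seen, H2-T22, H2-M3, Ifitm2, Ifitm3, Ifnz, Sftpb, Lamp3, Abca3 and the class II genes. mRNA lengths came from GENCODE M21. edgeR 4.0.16 (TMM) and DESeq2 1.42.0 gave alternative scaling factors only, in R 4.3.3; the remainder ran in Python 3.11.15. The comparison was tested on simulated data, in which all cells of a group were drawn from a shared profile. Cells there differed only by depth and counting, so the test checks the calculation and not the calls' dependence on single cells.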

Additional observations from a re-analysis of the deposited data

Results flagged for a closer look

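Tapbp and Isg15 had counts in libraries that were left out for low totals, above the level in the left-out control libraries. Tapbp stood at 212 CPM (interval 186 to 240) over the 11 left-out RO-3306 libraries and 14.7 CPM (4.76 to 34.2) over the 19 left-out control libraries; 242 of its 246 counts came from library D5. Isg15 stood at 33.5 CPM (23.9 to 45.9) against 0 in the left-out control libraries, where 3 counts, taken as the most that a count of 0 allows, would be 8.79 CPM, and all 39 counts came from library D10. Each value rests on 1 library.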

How the results depend on the processing

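No paired analysis was possible because the results come from no test and each treatment is 1 sample. The number of measured members higher in RO-3306, 6 of 8, stayed within 1.5 times under the 15 settings run. The median log2 ratio of the 7 tested members, 0.70, was 0.29 with the mean of per-cell CPM, 0.90 with TMM factors, 0.92 with DESeq2 size factors, 0.36 without set B, 0.48 without set D and 1.44 in cells of 4500 to 6500 genes at equal depth, a setting chosen after seeing the data. The median of all genes moved from -0.22 to -0.01 with TMM and 0.01 with DESeq2 factors, so the members' distance to it changed little there. The number of members called, 1, was 2 at equal depth (H2-K1 and H2-D1), 2 without set A (Isg15 and Bst2), 3 without set C (H2-K1, H2-D1 and Bst2), 0 without set D, 3 in the cells of 4500 to 6500 genes (H2-D1, Tap1 and Bst2) and 3 without control cell C3, also chosen after seeing the data; with the mean of per-cell CPM and without set B the 1 call was Tap1. When each member was taken without its own top cell in each group, H2-K1 (log2 1.17), H2-D1 (2.07), Tap1 (1.09) and Bst2 (1.45) met the rule. For both heavy chains the top control cell was C3. With 604699 counts C3 fell short of the 639000 reads of thinning. It was therefore also absent at equal depth and in the window of genes, as it was without set C. These settings are not independent of leaving out C3. The cause of these changes in the calls was not tested. Members that changed sign without being called were H2-D1 (-0.02 with the mean of per-cell CPM), Irf1 (0.02 with DESeq2 factors) and Irf7 (0.36 without set B, 0.29 without its top cells). The 13 summed heavy chain genes stood at -0.21 with the mean of per-cell CPM and -0.01 without set A. List medians changed sign for the negative regulators (0.03) and peptide loading (0.05) without set B, for the receptors (-0.17) without set C, for Isg15 conjugation in 3 settings (-0.20 without set A, -0.02 without set D, -0.33 with the mean of per-cell CPM), for the other regulatory factors (0.05) in the window of genes, for the sensors, whose median was near 0, in 6 settings (0.20 to 0.78), and for the effectors in 5 settings (0.01 to 0.40, DESeq2, TMM, per-cell mean, length and the window of genes). No kept cell was over 20% mitochondrial. With 29 and 37 cells, a member found in no cell of a group could still be in 11.9% or 9.49% of such cells (Clopper-Pearson).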
